A study of Mus musculus with 6 samples.

Results

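The growth factors and tissue-repair cytokines described here are amphiregulin (Areg), vascular endothelial growth factor A (Vegfa), granulocyte-macrophage colony-stimulating factor or GM-CSF (Csf2), osteopontin (Spp1) and oncostatin M (Osm). They were found by gene symbol on a mouse BeadChip of 46643 probes. The 5 genes, of 31484 named on the array, carried 6 probes, 2 of them for Osm and 1 for each of the others. The samples were NKp46+ cells, which the submitters call natural killer (NK) cells, sorted from 3 tissues. The 2 intestine samples came from the lamina propria, the connective tissue under the gut lining, beside 2 skin samples and 2 spleen samples. All 6 came from male C57BL/6 mice aged 12 weeks labelled RAG-2-KO, which lack the recombinase subunit needed to make T and B cells. The sort gate was CD45+ CD3- Nkp46+ and, as the labels spell it, NK11+. Nothing in the labels says whether the samples of a tissue came from separate mice, and the p-values cover only how these arrays varied, which may be technical variation alone.

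The proteins share a place in repair and inflammation and act through different receptors. Amphiregulin is made as a membrane protein and cut free by a sheddase. It then binds the epidermal growth factor (EGF) receptor on epithelium and stroma. Innate lymphoid cells are a known source of it in mouse gut. VEGF-A drives the growth of blood vessels and is a classical target of hypoxia-inducible factors. GM-CSF acts on macrophages, dendritic cells and granulocytes, and in mouse gut it is made in part by innate lymphoid cells. Osteopontin is both a matrix protein and a secreted cytokine that binds integrins and CD44. Oncostatin M belongs to the interleukin-6 (IL-6) family, signals through gp130 with the oncostatin M receptor, and is made mainly by blood-derived cells.

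Promoters are shown for Areg, Csf2 and Vegfa, whose signals were highest in the intestine, and for Spp1, whose signal was highest in the skin. Each line gives the 150 bases just before the annotated start of the gene, read 5′ to 3′ on the strand of the gene, from RefSeq on GRCm38.p6. RefSeq promoters were matched for 4 of the 5 genes. For Vegfa and Spp1 the first listed start is shown.
Areg, chr5:91139449-91139598, plus strand: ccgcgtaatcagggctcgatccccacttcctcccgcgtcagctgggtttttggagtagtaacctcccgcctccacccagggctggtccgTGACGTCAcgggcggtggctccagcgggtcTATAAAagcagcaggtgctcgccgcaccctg
Csf2, chr11:54249900-54250049, minus strand: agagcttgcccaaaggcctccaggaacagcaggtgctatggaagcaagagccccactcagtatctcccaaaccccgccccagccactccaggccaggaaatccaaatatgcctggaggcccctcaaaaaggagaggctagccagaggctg
Vegfa, chr17:46032378-46032527, minus strand: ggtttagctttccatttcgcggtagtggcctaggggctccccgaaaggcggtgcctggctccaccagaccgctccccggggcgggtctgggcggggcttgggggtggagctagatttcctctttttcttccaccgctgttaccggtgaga
Spp1, chr5:104434961-104435110, plus strand: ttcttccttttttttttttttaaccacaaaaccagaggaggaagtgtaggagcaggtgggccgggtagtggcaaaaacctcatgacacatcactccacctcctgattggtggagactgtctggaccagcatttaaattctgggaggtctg
Capitals mark matches to 4 motifs searched on both strands of the 300 bases from 250 before to 50 after the start: the cyclic AMP response element (CRE, TGACGTCA), the AP-1 site (TGANTCA), the hypoxia-inducible factor (HIF) core (ACGTG) and the TATA box (TATAAA). Areg held the CRE with its first base at -61 and a TATA box at -31, where -1 is the base just before the start. The CRE was present in 1.79% of 32851 mouse promoters of the same length, the AP-1 site in 7.81%, the HIF core in 19.6% and the TATA box in 13.6%. The promoters of Csf2 and of the first start of Vegfa held none of the 4 motifs in this window. The second listed start of Vegfa, which is not shown, held a HIF core at -211. Its 300 bases, chr17:46025114-46025413 on the minus strand, lie downstream of the first start, so this match does not lie before the first start. Spp1 held a TATA box at -211, outside the bases shown. These matches describe letters only, and no binding was measured.

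The deposited signal is a background-subtracted bead brightness scaled to a mean of 83.1 on every array, and a probe is called detected where its deposited detection p was under 0.01. Between 32.6% and 39.7% of probes were detected on an array, with the 2 highest shares on the spleen arrays. The lowest detected signal was 5.65 and 8.87 on the intestine arrays, 9.94 and 7.74 on the skin arrays, and 4.57 and 4.36 on the spleen arrays. A dim probe could therefore be detected in spleen and missed elsewhere at the same signal, which limits every comparison of detection between tissues. Replicate arrays correlated at 0.984 in intestine, 0.989 in skin and 0.995 in spleen over probes. The sort was checked on 20 NK and ILC1 markers. Of these, 16 were detected on both intestine arrays, 16 on both skin arrays and 17 on both spleen arrays. Of the 17 tested, 11 were lower and 2 higher in intestine than in spleen (median log2 difference -0.87), and 7 were lower and 1 higher in skin than in spleen (median -0.34). This shift of the sorted cells' own markers moved with the differences described here, and its part in them was not tested. Klrb1c, which encodes NK1.1, had signals of 978 and 1073 in intestine, 2125 and 2003 in skin and 2311 and 2071 in spleen. Ncr1, which encodes NKp46, was detected on all 6 arrays, at 10.8 and 14.7 in intestine, 33.1 and 32.4 in skin and 88.2 and 52.9 in spleen. In sorted bulk samples a lower signal from fewer expressing cells and one from less RNA per cell cannot be told apart.

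Areg, the EGF receptor ligand, was present in the intestine cells and at or near background in the cells of both other tissues. Its signal was 240 and 197 on the intestine arrays, 5.64 and 5.29 on the skin arrays, and 3.8 and 4.49 on the spleen arrays. Both intestine arrays stood far above the other 4. The probe was detected on both intestine arrays, on neither skin array and on 1 of the 2 spleen arrays. The intestine minus spleen difference in log2 signal was 3.66 ± 0.14 (SE, n = 2 arrays per tissue; 12.6-fold, limma adjusted p = 2.02e-07). Intestine minus skin was also 3.66 ± 0.14 (limma adjusted p = 2.95e-07). Since the probe was undetected in skin, the intestine level was at least 11-fold higher. Between skin and spleen no difference was measurable, 0.00 ± 0.14 with a 95% interval of -0.31 to 0.31, both levels lying at the detection limit. An offset of 16 was added to every signal before the log, so these folds understate the change of a gene that is near 0 in a tissue. Areg differed by 2.44 with an offset of 50 in both comparisons and by 5.44 (intestine minus spleen) or 5.45 (intestine minus skin) with an offset of 1.

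**Figure D1:**
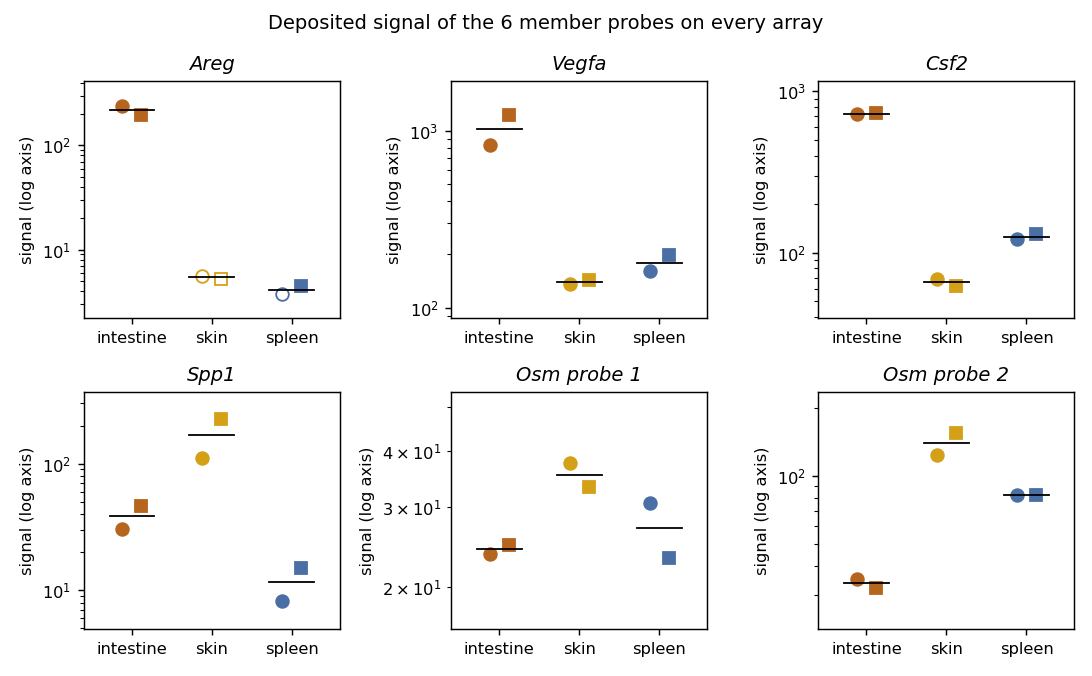
Deposited signal (log axis, arbitrary brightness units after scaling) of the 6 probes in intestine, skin and spleen cells; circles are replicate 1, squares replicate 2, bars the mean of the 2 arrays, and open symbols are arrays where the probe was not detected. The intestine arrays are highest for Areg, Vegfa and Csf2, the skin arrays for Spp1 and both Osm probes, and Areg in intestine lies at 240 and 197 against at most 5.64 elsewhere.

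Vegfa, the vessel growth factor, was detected on all 6 arrays and was several-fold higher in the intestine cells. Its signal was 833 and 1220 in intestine, 136 and 143 in skin, and 160 and 198 in spleen. The intestine arrays did not overlap with either other tissue, and the skin arrays were both slightly under the spleen arrays in deposited signal. After normalization the skin arrays (log2 signal 7.30 and 7.34) lay between the spleen arrays (7.23 and 7.53). The log2 difference was 2.65 ± 0.20 for intestine minus spleen (SE, n = 2 each; 6.27-fold, limma adjusted p = 5.83e-06) and 2.71 ± 0.20 for intestine minus skin (6.55-fold, limma adjusted p = 6.57e-06). For skin minus spleen it was -0.06 ± 0.20 (limma adjusted p = 0.839), with a 95% interval from -0.50 to 0.38. Within slide 1, which held replicate 1 of every tissue, the intestine minus spleen difference was 2.50, and within slide 2 it was 2.79.

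Csf2, which encodes GM-CSF, was also several-fold higher in the intestine cells, with closely matched replicates. Its signal was 724 and 732 in intestine, 69.2 and 62.2 in skin, and 121 and 130 in spleen. No 2 tissues overlapped, and the order was intestine, then spleen, then skin. With 2 arrays per tissue, non-overlap here and for the other genes only describes the values. The share of all probes without overlap was not counted. The log2 difference was 2.68 ± 0.14 for intestine minus spleen (SE, n = 2 each; 6.41-fold, limma adjusted p = 7.77e-07) and 3.21 ± 0.14 for intestine minus skin (9.24-fold, limma adjusted p = 3.92e-07). Skin cells were lower than spleen cells by a smaller margin, with a log2 difference of -0.53 ± 0.14 (1.44-fold lower, limma adjusted p = 0.026). That last call stood in 11 of 17 alternative settings. It was lost with an offset of 1 (limma adjusted p = 0.0652), with no filter (0.0665) and when any single skin or spleen array was left out. Its limma adjusted p was 0.0664 without skin replicate 1, 0.102 without skin replicate 2, 0.136 without spleen replicate 1 and 0.2 without spleen replicate 2.

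Spp1, which encodes osteopontin, was highest in the skin cells, intermediate in the intestine cells and lowest in the spleen cells. Its signal was 30.6 and 46.1 in intestine, 111 and 224 in skin, and 8.18 and 14.9 in spleen. No tissues overlapped, and replicate 2 was the higher array in each tissue. Its SE was the largest of the 6 probes. Skin minus spleen was 2.71 ± 0.26 on the log2 scale (SE, n = 2 each; 6.57-fold, limma adjusted p = 0.000427), 2.42 within slide 1 and 3.01 within slide 2. Intestine minus spleen was 1.18 ± 0.26 (2.27-fold, limma adjusted p = 0.00472), and intestine minus skin was -1.53 ± 0.26 (2.9-fold lower, limma adjusted p = 0.00135). With an offset of 1 the skin minus spleen difference was 3.77 and the intestine minus spleen difference 1.95; with an offset of 50 the skin minus spleen difference was 1.80.

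Osm, which encodes oncostatin M, had the highest signal in the skin cells on both of its probes, and the probes did not give the same answer for the intestine. Probe 2, the brighter one, read 35.2 and 32.2 in intestine, 124 and 155 in skin, and 82.3 and 82.9 in spleen. Its tissues did not overlap, in the order skin, spleen, intestine. Its log2 difference was 0.91 ± 0.14 for skin minus spleen (SE, n = 2 each; 1.88-fold, limma adjusted p = 0.00383). It was -1.48 ± 0.14 for intestine minus skin (2.78-fold lower, limma adjusted p = 4.31e-05) and -0.56 ± 0.14 for intestine minus spleen (1.48-fold lower, limma adjusted p = 0.0102). The last of these lost its call without spleen replicate 1 (limma adjusted p = 0.0677) or spleen replicate 2 (0.0773).

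Probe 1 of Osm read 23.7 and 24.8 in intestine, 37.6 and 33.2 in skin, and 30.7 and 23.2 in spleen. Here the spleen arrays lay on both sides of the intestine arrays in deposited signal. After normalization both spleen arrays (log2 signal 5.35 and 5.16) lay under both intestine arrays (5.49 and 5.51). The log2 difference was 0.46 ± 0.14 for skin minus spleen (1.38-fold, limma adjusted p = 0.0397) and -0.22 ± 0.14 for intestine minus skin (limma adjusted p = 0.246). Intestine minus spleen was 0.24 ± 0.14 (limma adjusted p = 0.177), with the opposite sign to probe 2, and -0.09 under the deposited scaling alone. The skin minus spleen call on probe 1 stood in 9 of 16 alternatives. It was lost with an offset of 1 (limma adjusted p = 0.0635), under the deposited scaling alone (0.18), with no filter (0.103) and when any single skin or spleen array was left out. Its limma adjusted p was 0.162 without skin replicate 1, 0.0704 without skin replicate 2, 0.153 without spleen replicate 1 and 0.301 without spleen replicate 2. Both probes therefore gave a higher skin than spleen signal, while a lower intestine signal rests on probe 2.

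**Figure D2:**
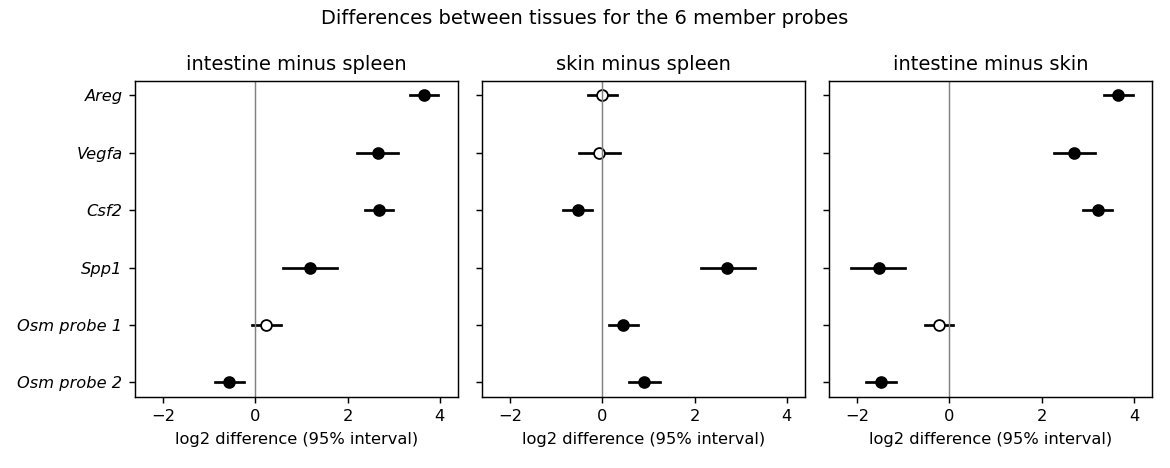
Log2 difference between tissues (x axis) for each of the 6 probes, with its 95% interval as a bar; filled points passed limma's test at an adjusted p of 0.05 and open points did not. Areg, Vegfa and Csf2 lie between 2.65 and 3.66 in both comparisons with intestine, and Spp1 has the highest value for skin minus spleen, 2.71.

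All 6 probes passed the detection filter that left 18583 probes for testing, so none was lost. Areg passed only through its intestine arrays, where it was high, so its calls were not independent of the filter. Requiring detection on all 6 arrays left Areg untested, with 4 called members in each intestine comparison. Under the main filter, 4 of the 6 probes were higher and 1 lower for intestine minus spleen, with 1 not passing. Of all tested probes 47.5% were called in that comparison (19.9% higher and 27.6% lower), so a call alone is common there. Counted by gene, with the brighter probe of Osm, 48.2% of all genes were called. For skin minus spleen 3 were higher and 1 lower, with 2 not passing, beside 22.9% of probes (10.8% higher and 12.1% lower) and 23.1% of genes called. For intestine minus skin 3 were higher and 2 lower, with 1 not passing, beside 36.2% of probes (16.7% higher and 19.5% lower) and 38.1% of genes called. The median log2 difference over the 6 probes was 1.92, 0.23 and 1.24 in the order of these comparisons, and over all tested probes it was -0.07, -0.04 and -0.05. Any 2 of the 3 comparisons share the arrays of a tissue, so their values are not independent.

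Markers of other cells that can make these proteins were read on the same arrays. Of 26 macrophage, monocyte and dendritic cell markers, 12 were detected on no array, among them Csf1r, Cd14, Fcgr1 and Cd163. Their summed signal was 452 and 460 in intestine, 658 and 659 in skin, and 1001 and 924 in spleen. Genes that NK cells also express gave much of the spleen sums, with Itgax at 356 and 282, Cx3cr1 at 217 and 207 and Ccr2 at 170 and 153. Of the 26 markers, 13 were detected on both spleen arrays, 5 on both intestine arrays and 6 on both skin arrays. Dim probes were detected at lower signals on the spleen arrays, so these counts are not on an equal footing. Adgre1, Lyz2, C1qa, C1qb, C1qc and Mrc1 were detected on both spleen arrays and on no other array. Lyz2 read 26.5 and 54.4 in spleen, and C1qb 19.1 and 21.1. Of the 13 tested, 9 were lower and 1 higher in intestine than in spleen, and 9 were lower in skin than in spleen with none higher. The 1 higher was Zbtb46, a dendritic cell marker, at 65.9 and 91.3 in intestine, 22.4 and 21.1 in skin, and 58.6 and 65.5 in spleen. Its intestine minus spleen difference was 0.69 ± 0.16 (limma adjusted p = 0.00623), and its other probe gave 2.28 (limma adjusted p = 2.92e-06). Zbtb46 thus moved with Areg, Vegfa and Csf2 in intestine. Of 14 mast cell and basophil markers, 10 were detected on no array, among them Cpa3, Fcer1a and Mcpt4. The sums were 57.2 and 76.3 in intestine, 231 and 167 in skin, and 805 and 701 in spleen. A single gene, the chymase Cma1, made up nearly all of the spleen sums, at 798 and 691. Of the other tested members, Hdc, the histamine-forming enzyme, read 22.8 and 10.1 in intestine and was detected in neither skin nor spleen (1.26 ± 0.22 for intestine minus spleen, at least 1.6-fold, limma adjusted p = 0.00134). Tpsb2, a tryptase, was higher than in spleen in both intestine (0.39 ± 0.14, at least 1.16-fold, limma adjusted p = 0.043) and skin (0.55 ± 0.14, at least 1.29-fold, limma adjusted p = 0.0246). Of 12 neutrophil markers 4 were detected on no array, with sums of 90.9 and 62.3 in intestine, 36.6 and 47.6 in skin, and 72.8 and 234 in spleen. The 2 spleen arrays lay far apart for neutrophils. The part of these cells in the members' signals was not tested.

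Of 11 T cell markers, Cd3e, Cd4, Cd5, Cd6 and Foxp3 were detected on no array, and the sums were 1003 and 1185 in intestine, 834 and 907 in skin, and 913 and 807 in spleen. The 6 tested were 3 higher, 1 lower and 2 not passing for intestine minus spleen, and 1 higher, none lower and 5 not passing for skin minus spleen. Cd3g, a chain of the T cell receptor complex, read 312 and 597 in intestine, 54.6 and 59.4 in skin, and 109 and 81.4 in spleen (2.35 ± 0.25 for intestine minus spleen, limma adjusted p = 6.04e-05). Cd8a was detected on both intestine arrays, at 6.05 and 23.3, and on no other, and Bcl11b was higher in intestine than in spleen by 1.14 ± 0.14 (limma adjusted p = 0.000132). Other probes of Bcl11b gave -0.50 (limma adjusted p = 0.0282) and 0.45 (0.0268) for intestine minus spleen, so its probes differed in sign. Cd8b1 was the 1 lower gene (-0.43 ± 0.13, limma adjusted p = 0.0241) and was higher in skin than in spleen by 0.71 ± 0.13 (limma adjusted p = 0.00807). Cd3d and Cd28 were detected on all 6 arrays. These T cell markers in part moved with Areg, Vegfa and Csf2 in intestine, and their part in those signals was not tested.

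Markers of structural cells were mostly dim. Of 15 gut epithelial markers, 8 were detected on no array, including Epcam, Krt8 and Fabp1, with sums of 134 and 195 in intestine, 142 and 123 in skin, and 91.5 and 111 in spleen. Within that list Cdh1, which encodes E-cadherin, read 61.1 and 84.5 in intestine and was detected in neither other tissue. Of 14 keratinocyte markers, 10 were detected on no array, Krt5 and Krt14 included, with sums of 71.8 and 79.8 in intestine, 89.6 and 73.4 in skin, and 53.6 and 53.9 in spleen. Of 15 fibroblast and endothelial markers 8 were detected on no array, including Col1a1, Col3a1 and Cdh5. The sums were 628 and 788 in intestine, 254 and 279 in skin, and 251 and 248 in spleen. Pecam1, an adhesion molecule that leukocytes also carry, made up most of them, with 550 and 728 in intestine, 178 and 216 in skin, and 222 and 219 in spleen. Dcn, which encodes the fibroblast proteoglycan decorin, read 45.7 and -2.53 in intestine, 34.2 and 17.1 in skin, and -0.443 and -3.49 in spleen. It was detected on both skin arrays, 1 intestine array and neither spleen array (1.76 ± 0.58 for skin minus spleen, limma adjusted p = 0.0517). The part of these cells in the intestine signals of Areg, Vegfa and Csf2 and in the skin signals of Spp1 and Osm was not tested.

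Of the other innate lymphoid cells, 14 markers of group 3 cells (ILC3) summed to 2659 and 2693 in intestine, 730 and 679 in skin, and 1008 and 1052 in spleen. Of the 9 tested, 7 were higher in intestine than in spleen and none was lower. Il23r, Il22, Il17f, Ccr6 and Cxcr5 were detected on no array. The ILC3 marker sum thus moved in the same direction as Areg, Vegfa and Csf2 in intestine, and its part in their signals was not tested. For group 2 cells (ILC2), 12 markers summed to 765 and 613 in intestine, 942 and 840 in skin, and 1175 and 1140 in spleen, and Il17rb, Il5 and Ptgdr2 were detected on no array. Klrg1, which mature NK cells also carry, made up most of the skin and spleen sums, at 128 and 123 in intestine, 629 and 562 in skin, and 778 and 792 in spleen. Gata3 read 399 and 250 in intestine, 274 and 247 in skin, and 378 and 336 in spleen and passed no test. Calca, which encodes a calcitonin gene-related peptide, read 215 and 217 in intestine and was detected in neither skin nor spleen (3.93 ± 0.18 for intestine minus spleen, at least 12.4-fold, limma adjusted p = 3.66e-07). The other probe of Calca gave a smaller difference, 0.88 for intestine minus spleen (limma adjusted p = 0.00224) and 0.75 for intestine minus skin (limma adjusted p = 0.0066). On both probes Calca thus moved with Areg, Vegfa and Csf2, and the part of ILC2 in their signals was not tested. The marker genes singled out here and for the other cell types were chosen after their values were seen.

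Around Areg, the list of EGF family ligands, receptors and shedding factors held 22 genes, of which 8 passed the detection filter with Areg among them. The other ligands Tgfa, Hbegf, Btc, Ereg and Epgn and the receptor Egfr did not pass. Between intestine and spleen 4 of the 8 were higher, 1 lower and 3 did not pass the test. Areg itself is among the 4, and the lists around the other genes described here likewise count that gene. Areg and Rhbdf1 passed the filter only through their intestine arrays, where they were high, so their calls were not independent of it. The same holds for Epas1 and Il2ra in the lists below. Their median log2 difference was 0.45, against -0.04 over all 13455 tested genes, of which 20.5% were higher and 27.8% lower. Errfi1, a feedback inhibitor of the EGF receptor, read 559 and 484 in intestine, 153 and 153 in skin, and 193 and 172 in spleen. It was higher in intestine than in spleen by 1.74 ± 0.14 (limma adjusted p = 8.35e-06) and than in skin by 1.70 ± 0.14 (limma adjusted p = 1.18e-05). Rhbdf1, which encodes a partner of the sheddase ADAM17, was at least 2.23-fold higher in intestine than in spleen (1.26 ± 0.19, limma adjusted p = 0.000419). Adam17, which encodes the sheddase that releases amphiregulin, was the 1 lower gene at 50.8 and 56.6 in intestine against 197 and 188 in spleen (-1.16 ± 0.13, limma adjusted p = 9.44e-05). It falls outside the naming rule and was named after its values were seen.

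Between intestine and skin 3 of the 8 EGF genes were higher, 1 lower and 4 did not pass, beside 16% of all genes higher and 22.1% lower. The list median was 0.23 (0.19 with undetected genes at their bound) against -0.08 over all genes. Between skin and spleen 1 was higher, none was lower and 7 did not pass, beside 12.3% of all genes higher and 10.8% lower. The list median was 0.07 (0.03 at the bound) against 0.00. These shares and medians of all genes also stand beside the lists that follow. The 1 gene was Nrg3, a neuregulin (0.61 ± 0.15, limma adjusted p = 0.02). Its call was lost when any 1 of the 4 arrays was left out, with a limma adjusted p of 0.0984 without skin replicate 1, 0.0503 without skin replicate 2, 0.171 without spleen replicate 1 and 0.135 without spleen replicate 2.

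Around Vegfa, 7 of 15 genes of the VEGF and angiopoietin family and its receptors were tested. Compared with spleen, 2 were higher in intestine, 2 lower and 3 did not pass (median 0.22). Compared with skin, 1, Vegfa, was higher in intestine, 3 were lower and 3 did not pass (median -0.31). Vegfc and Angptl4 went the other way from Vegfa. Vegfc, the growth factor of lymphatic vessels, read 54.7 and 57.7 in intestine, 247 and 223 in skin, and 163 and 164 in spleen. It was lower in intestine than in spleen by a log2 difference of -0.89 ± 0.14 (limma adjusted p = 0.00053) and than in skin by -1.62 ± 0.14 (limma adjusted p = 1.53e-05). Angptl4, an inhibitor of lipoprotein lipase, read 11.3 and 14.2 in intestine, 38.4 and 48.3 in skin, and 44.1 and 42.6 in spleen. It was also lower in intestine than in both (-0.73 ± 0.14 against spleen, limma adjusted p = 0.00202, and -0.98 ± 0.14 against skin, limma adjusted p = 0.000442).

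In skin 2 VEGF genes were higher than in spleen, none was lower and 5 did not pass, with a median of 0.39. They were Vegfc (0.73 ± 0.14, limma adjusted p = 0.00712) and Vegfb (0.72 ± 0.16, limma adjusted p = 0.0157, or 0.0645 with an offset of 1). The Vegfc call was lost without skin replicate 1 (0.0535), spleen replicate 1 (0.0791) or spleen replicate 2 (0.0724), and the Vegfb call without the same arrays (limma adjusted p of 0.101, 0.0909 and 0.127).

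Hypoxia-inducible factors and their targets, of which Vegfa is the textbook member, were listed apart from it. Of 29 genes 25 were tested, and Hif1a did not pass the filter. In intestine 7 were higher than in spleen, 3 lower and 15 did not pass (median 0.17). The skin minus spleen counts were also 7, 3 and 15 (median 0.02), and those of intestine minus skin were 11, 6 and 8 (median 0.37). Arnt counted as lower in intestine than in spleen (-0.65 ± 0.13, limma adjusted p = 0.0032). Its other probes gave 0.95, 0.28, 1.44 and 0.60 for that comparison. Hk2, which encodes a hexokinase at the first step of glycolysis, read 1259 and 875 in intestine, 39.9 and 52.5 in skin, and 26.7 and 24.0 in spleen. This is a log2 difference of 4.90 ± 0.17 from spleen (limma adjusted p = 1.47e-07) and 4.12 ± 0.17 from skin (limma adjusted p = 2.95e-07). Bhlhe40, a transcription factor needed for GM-CSF production by mouse T cells, read 3837 and 4268 in intestine, 1253 and 1534 in skin, and 916 and 1141 in spleen (2.0 ± 0.17 from spleen, limma adjusted p = 1.23e-05). Epas1, which encodes HIF-2 alpha, was undetected in skin and spleen and at least 2.05-fold and at least 2.31-fold higher in intestine than in each.

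Other members of the list were the largest changes in skin. Ldha, the lactate dehydrogenase subunit, exceeded its spleen level in skin by 0.79 ± 0.13 (limma adjusted p = 0.00524). Hmox1, which encodes heme oxygenase 1, was undetected in skin, where its level was at least 2.16-fold lower (-1.53 ± 0.25 from spleen, limma adjusted p = 0.00409). Arnt, the partner subunit of both HIF alpha proteins, was lower in skin by a log2 difference of -0.84 ± 0.13 (limma adjusted p = 0.00392), while its 4 other probes gave 0.61, -0.49, 0.17 and -0.28. Without spleen replicate 2 the calls of Ldha (limma adjusted p = 0.0727) and Arnt (limma adjusted p = 0.0628) were lost.

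Around Csf2, only 3 of 13 colony-stimulating factor genes and their receptors were tested, and Csf2rb, the signalling chain of the GM-CSF receptor, did not pass the filter. All 3 were higher in intestine than in spleen (median 0.53). In skin 1 was higher than in spleen, 1 lower and 1 did not pass (median 0.03), and between intestine and skin 2 were higher and 1 lower (median 0.51). Il3ra, the IL-3 receptor alpha chain, read 118 and 110 in intestine, 184 and 184 in skin, and 105 and 108 in spleen. It was higher in skin than in spleen by 0.96 ± 0.13 (limma adjusted p = 0.00183). Csf2ra, the alpha chain of the GM-CSF receptor, was higher in intestine than in spleen by 0.53 ± 0.16 (limma adjusted p = 0.0196) and Il3ra by 0.51 ± 0.13 (limma adjusted p = 0.0094). As limma adjusted p, these were 0.534 and 0.604 under the deposited scaling alone, 0.151 and 0.0917 without spleen replicate 1, and 0.0616 and 0.0641 without spleen replicate 2. Without intestine replicate 2 that of Csf2ra was 0.0802. The intestine minus skin calls of Csf2ra and Il3ra stood in 9 and 10 of 17 alternatives.

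Around Spp1, 7 of 15 osteopontin relatives and receptors were tested. Compared with spleen, 3 were higher in intestine, 1 lower and 3 did not pass (median 0.39), and 2 were higher in skin, 2 lower and 3 did not pass (median -0.03, or 0.00 at the bound). Between intestine and skin 4 were higher, 2 lower and 1 did not pass (median 0.48). The chains of the alpha-v beta-3 integrin, a receptor of osteopontin, were higher in the intestine, not in the skin where Spp1 peaked. Itgb3 read 46.5 and 34.1 in intestine, 9.03 and 5.40 in skin, and 6.14 and 5.97 in spleen (1.49 ± 0.16 from spleen, limma adjusted p = 4.92e-05; at least 2.69-fold higher than in skin). Itgav read 45.9 and 53.8 in intestine, 15.6 and 17.6 in skin, and 17.8 and 22.6 in spleen (1.17 ± 0.15 from spleen, limma adjusted p = 0.000152), with 0.28, 0.46 and 1.42 on its other probes. Itga4, the alpha chain of the integrins VLA-4 and alpha-4 beta-7, was lower in skin than in spleen by a log2 difference of -1.28 ± 0.14 (limma adjusted p = 0.000734) and by -0.59, -1.08 and -0.79 on its other probes. Itgb1, the beta-1 chain, was lower in intestine than in skin by a log2 difference of -1.32 ± 0.14 (limma adjusted p = 6.95e-05), with -0.37 and -0.25 on its other probes.

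Around Osm, 6 of 17 genes of the IL-6 family and its receptors were tested; Il6, Osmr and Il6st, which encodes gp130, did not pass the filter. Compared with spleen, 3 were higher in intestine, 2 lower and 1 did not pass (median 0.28). In skin 1, Osm, was higher than in spleen, none was lower and 5 did not pass (median 0.17). Between intestine and skin 2 were higher, 1, Osm, was lower and 3 did not pass (median 0.22). Lif, which encodes leukemia inhibitory factor and is the closest relative of Osm, read 15.1 and 28.4 in intestine, 15.4 and 10.2 in skin, and 5.32 and 6.42 in spleen. It was higher in intestine than in spleen by 0.89 ± 0.18 (limma adjusted p = 0.003). Cntf, a neurotrophic member of the family, was higher in intestine than in spleen by 0.74 ± 0.14 (limma adjusted p = 0.00198). Its 2 other probes gave -0.15 and -0.04, and under the deposited scaling alone its adjusted p was 0.0684. Il11ra1, the IL-11 receptor chain, was lower in intestine than in spleen by a log2 difference of -0.73 ± 0.16 (limma adjusted p = 0.00476; 0.0604 without spleen replicate 2).

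**Figure D3:**
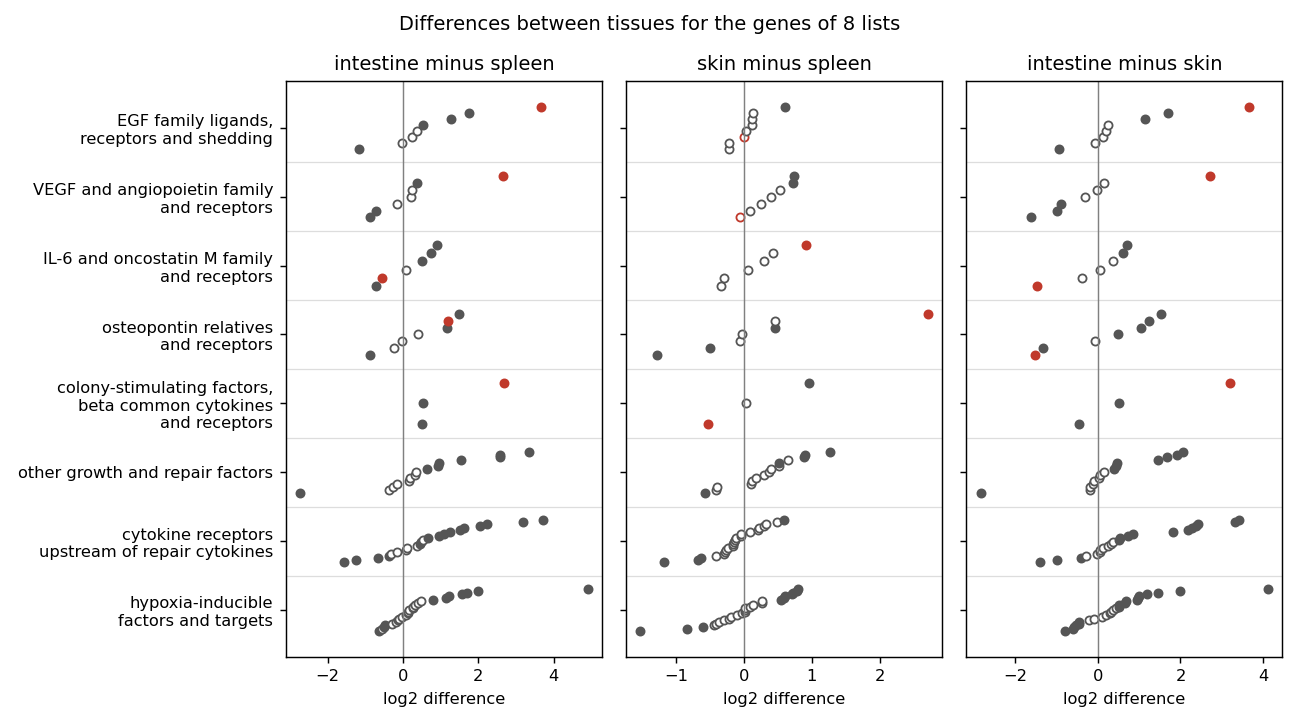
Log2 difference between tissues (x axis) for every tested gene of 8 lists, 1 point per gene; red points are the 5 genes described here, black points the others, and filled points passed limma's test at an adjusted p of 0.05. In the VEGF list Vegfa, at 2.65 for intestine minus spleen, stands opposite to Vegfc at -0.89, and in the growth factor list Pdgfa, at 3.34, stands opposite to Pdgfb at -2.73.

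Among 42 other growth and repair factors 15 were tested, and Il22, Il10 and Il33 did not pass the filter. In intestine 7 were higher than in spleen, 1 lower and 7 did not pass (median 0.34). The skin minus spleen counts were 4, 1 and 10 (median 0.36, or 0.31 at the bound), and those of intestine minus skin 7, 1 and 7 (median 0.14, or 0.03 at the bound). Pdgfa, a growth factor for mesenchymal cells, read 335 and 293 in intestine, 54.9 and 80.2 in skin, and 19.4 and 25.9 in spleen. Its intestine minus spleen difference was 3.34 ± 0.16 (limma adjusted p = 6.33e-07; 3.16 on its other probe), and skin minus spleen was 1.27 ± 0.16 (limma adjusted p = 0.00149). Pdgfb, the B chain, was the 1 gene lower in intestine than in spleen. It read 48.6 and 56.8 in intestine, 556 and 510 in skin, and 523 and 584 in spleen (-2.73 ± 0.15 from spleen, limma adjusted p = 8.86e-07; -0.90 on its other probe). Tnf, the inflammatory cytokine, read 253 and 137 in intestine, 55.4 and 32.7 in skin, and 25.1 and 29.7 in spleen (2.57 ± 0.25 from spleen, limma adjusted p = 3.18e-05). Tgfb1, which encodes transforming growth factor beta 1, read 264 and 306 in intestine, 78.6 and 91.1 in skin, and 50.5 and 47.7 in spleen. It was higher in intestine than in spleen by 2.56 ± 0.14 (limma adjusted p = 1.05e-06) and than in skin by 1.68 ± 0.14 (limma adjusted p = 1.59e-05). Its skin minus spleen difference was 0.88 ± 0.14 (limma adjusted p = 0.0041; 0.0522 without spleen replicate 2). Mif, the macrophage migration inhibitory factor, was higher than in spleen by 0.93 ± 0.13 in intestine (limma adjusted p = 0.000347) and by 0.90 ± 0.13 in skin (limma adjusted p = 0.00279).

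Cytokine receptors that act upstream of such factors in lymphoid cells formed the last list, with 22 of 27 tested. Il1rl1, the IL-33 receptor, Il17rb, the IL-25 receptor, Il23r and Ptger4 did not pass the filter. In intestine 12 were higher than in spleen, 4 lower and 6 did not pass (median 0.50). The skin minus spleen counts were 1, 3 and 18 (median -0.14, or -0.13 at the bound), and those of intestine minus skin 11, 3 and 8 (median 0.44). Il21r, the IL-21 receptor, read 410 and 402 in intestine, 24.1 and 28 in skin, and 20.8 and 23.1 in spleen (3.71 ± 0.14 from spleen, limma adjusted p = 2.02e-07; 1.94 on its other probe). Il4ra, shared by the IL-4 and IL-13 receptors, read 261 and 206 in intestine, 14.1 and 11.7 in skin, and 18.2 and 13.0 in spleen (3.19 ± 0.15 from spleen, limma adjusted p = 4.23e-07). Il2ra, the high-affinity chain of the IL-2 receptor, was at least 4.22-fold higher in intestine than in spleen, where it was undetected.

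In the skin 3 of these receptors were lower than in the spleen, as was Csf2. Tnfrsf25, the receptor of the TNF family ligand TL1A, read 139 and 163 in intestine, 19.6 and 19.3 in skin, and 67.4 and 91.1 in spleen. Its skin minus spleen difference was -1.18 ± 0.16 (limma adjusted p = 0.00204; -0.44 on its other probe). Il12rb2, a chain of the IL-12 receptor, differed by -0.64 ± 0.14 (limma adjusted p = 0.0141). Il7r, the IL-7 receptor, differed by -0.68 ± 0.19 (limma adjusted p = 0.0333, or 0.115 with an offset of 1 and 0.0636 with no filter). The Il12rb2 call was lost without skin replicate 1 (0.0504), skin replicate 2 (0.0618), spleen replicate 1 (0.154) or spleen replicate 2 (0.0756), and the Il7r call without skin replicate 2 (0.164), spleen replicate 1 (0.0999) or spleen replicate 2 (0.216).

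For each of the 5 genes the 3 genes with the most similar profile were sought among 13454 others by the Euclidean distance between log2 profiles over the 6 arrays, each centred on its own mean. With 6 arrays of 3 tissues such likeness mostly restates the tissue means, and it is given as a description. Nearest to Areg were Trf, which encodes transferrin (distance 0.18), Ccr7, a chemokine receptor of lymphoid homing (0.26), and Il21r (0.39). Ccr7 read 236 and 235 in intestine, 11 and 7.47 in skin, and 4.82 and 7.73 in spleen.

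Nearest to Vegfa were Lag3, an inhibitory receptor of activated lymphocytes (distance 0.20), B230363H02Rik (0.38) and Dkk3, a Dickkopf family protein (0.38). Lag3 read 193 and 292 in intestine, 29.5 and 23.5 in skin, and 33.9 and 39.6 in spleen. Nearest to Csf2 were Cxcr6, a chemokine receptor of tissue-resident lymphocytes (distance 0.25), Ifitm1, an interferon-induced membrane protein (0.30), and Cracdl (0.42). Cxcr6 read 212 and 200 in intestine, 12.4 and 8.35 in skin, and 30.4 and 25.1 in spleen, the same order of tissues as Csf2.

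Spp1 had no close neighbour. The nearest were Thy1, a surface glycoprotein of T cells and many innate lymphoid cells (distance 1.10), Capg, an actin-capping protein (1.15), and E2f1, a cell cycle transcription factor (1.48). Thy1 read 1777 and 1700 in intestine, 3730 and 3677 in skin, and 1030 and 1019 in spleen. Nearest to Osm, on probe 2, were Ccnb1, the mitotic cyclin B1 (distance 0.15), Phf19, a Polycomb-associated protein (0.18), and Kntc1, a kinetochore protein (0.23). Ccnb1 read 2.55 and -0.699 in intestine, 27.0 and 36.2 in skin, and 9.95 and 9.84 in spleen.

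**Figure D4:**
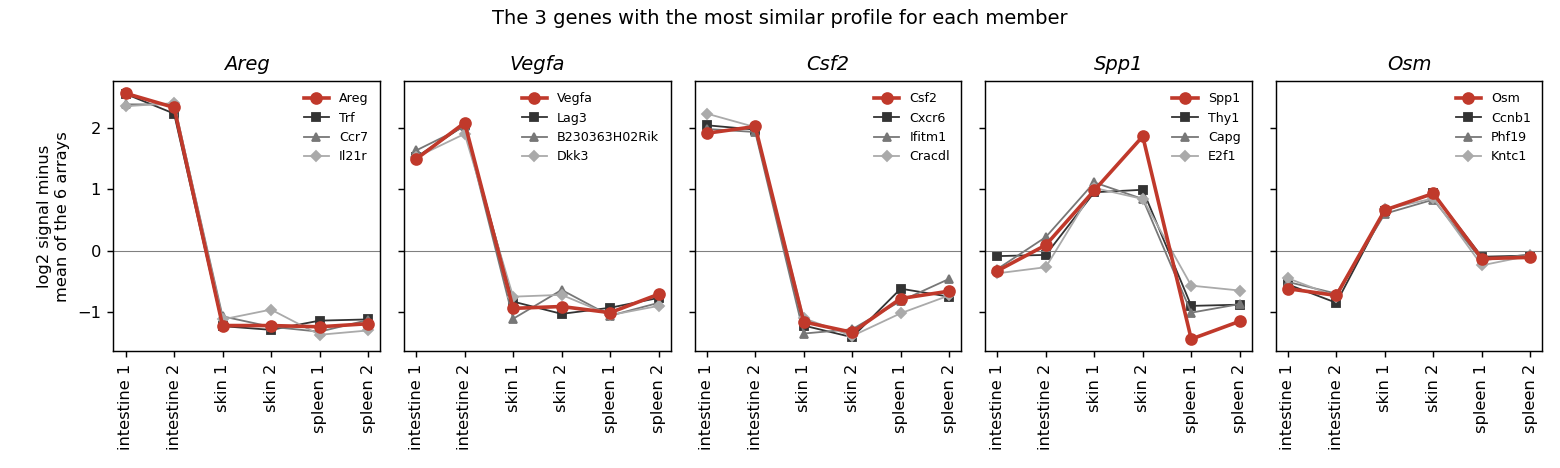
Log2 signal of each gene minus its mean over the 6 arrays (y axis) on the intestine, skin and spleen arrays (x axis); the red line is the gene named above the panel and the grey and black lines are its 3 nearest genes. The lines lie close together for Areg, Vegfa, Csf2 and Osm, with nearest distances of 0.15 to 0.25, and further apart for Spp1, where the nearest distance is 1.10.

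**Figure D5:**
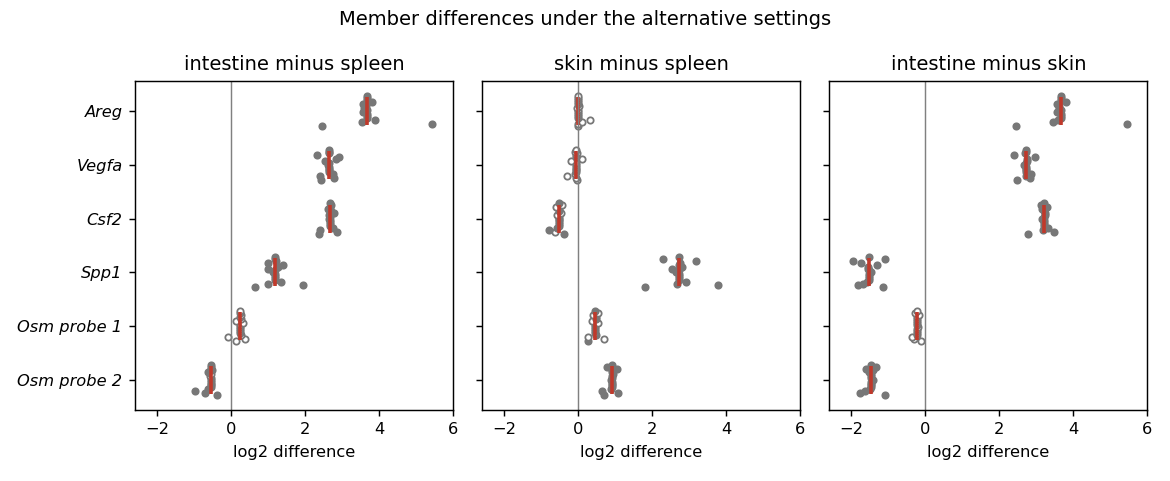
Log2 difference between tissues (x axis) for each probe under the main setting (red bar) and under each alternative (grey points, filled where limma's adjusted p was under 0.05). Areg, Vegfa and Csf2 stay called in every alternative of both comparisons with intestine, Areg spans 2.44 to 5.44 for intestine minus spleen, and the open points for Csf2 and Osm probe 1 in skin minus spleen are the settings that lost those calls.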

How the data were processed

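Expression was measured in 6 samples, 2 each from intestine, skin and spleen, on Illumina mouse BeadChips after amplification and biotin labelling, per the labels' protocols. BeadStudio 1.5.1.3 is named in the submitters' processing notes, and the arrays involve no alignment to a genome. The deposited tables give for each of 46643 probes a signal, which per the file headers is an average bead intensity, with its detection p-value. The sources used here do not give how that p-value was made. The values show that the authors had subtracted background (30.7% to 32.7% of probes lie below 0) and scaled each array to a mean of 83.1. A second deposited table holds the same signals unscaled.

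An offset of 16 was added, log2 taken from the deposited intensities and quantile normalization applied across arrays (limma 3.58.1, R 4.3.3). Probes were kept when detected at p under 0.01 in both samples of 1 tissue or more (18583 probes, 13455 genes by their brightest probe). All 3 comparisons came from lmFit and eBayes with 1 mean per tissue (3 residual degrees of freedom, prior 6.92) and Benjamini-Hochberg adjustment over all kept probes at 0.05; for gene lists, the calls of each gene's brightest probe were counted and are set beside the share of all genes called. Folds against an undetected tissue are lower bounds, taken per array against the lowest signal of any detected probe, or against the probe itself where brighter. The number of arrays, 2 per tissue, limits precision. Symbols were updated through a RefSeq gene table on GRCm38.p6 (20147 probes with a current symbol, 12966 with an older one). The fit was tested on simulated data.

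Members and lists were chosen with earlier results of these data known. Named genes are all 5 members, up to 3 called genes per list and comparison with the largest difference, and 3 nearest profiles per member; for length not every gene the rule gives is printed, and that choice was made with the values in sight. Slide 1 held replicate 1 and slide 2 replicate 2 of the 3 tissues; same-slide deviations from the tissue means correlated at 0.14 between intestine and spleen, 0.19 between skin and spleen and 0.11 between intestine and skin, so the slide was also fitted as a block. In all, 17 alternatives were run, covering the offset, scaling, filter, probe choice, table, block, leaving out each array, and fitting only the tissues compared.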

Additional observations from a re-analysis of the deposited data

How the results depend on the processing

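Under the slide as a block (the replicate block, which pairs the samples of a slide) no call on the 6 probes changed; it gave 9483 called probes for intestine minus spleen, 5114 for skin minus spleen and 7218 for intestine minus skin, against 8822, 4253 and 6727 without it. Leaving out 1 array at a time, with a lone array assumed to vary like the rest, moved the called probes between 5211 and 9078 for intestine minus spleen and between 622 and 6422 for skin minus spleen, and the called members of skin minus spleen between 2 and 4. The lowest counts, 622 and 632 for skin minus spleen, came without spleen replicate 2 and spleen replicate 1. For skin minus spleen, 2415 probes and 2 members were called with an offset of 1, 2277 probes and 2 members with no filter, and 6458 probes when only those tissues were fitted. Uncalled differences that changed sign were Osm probe 1 for intestine minus spleen (-0.09, deposited scaling alone) and, for skin minus spleen, Areg (0.09 under deposited scaling, 0.32 under median scaling, -0.03 to 0.02 when 1 array was left out) and Vegfa (-0.21 to 0.09 when 1 array was left out). The scaling moved the split of calls: 41.9% of intestine minus spleen calls were higher in the main setting, 24.7% under deposited scaling (median of all probes -0.26) and 58.8% under median scaling (0.10). For skin minus spleen these shares were 47%, 30.7% (-0.15) and 67.4% (0.07), and for intestine minus skin 46%, 33.6% (-0.15) and 47.7% (-0.02). The offset moved folds by over 1.5 times for Areg and Spp1 and for dim or strongly changed genes such as Hk2 (4.0 to 5.63, intestine minus spleen) and Il21r (2.83 to 4.48), with the direction and call of each kept. The cause of the count and scaling moves was not tested. With 2 arrays per tissue and dimmer arrays in intestine and skin, differences of dim genes such as Areg in skin and spleen were not measurable.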
